A study of Homo sapiens with 4 samples.

Results

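The 9 genes described here encode 7 laminin chains (LAMA3, LAMA4, LAMA5, LAMB1, LAMB2, LAMB3 and LAMC1) and the subunits of the hemidesmosome integrin (ITGA6 and ITGB4). They were picked by symbol out of 26336 genes in the deposited table, with the differences between the groups already in view, so each difference between groups below is a description of these genes and not a test of them. All libraries came from MDA-MB-231, a human line grown from a breast carcinoma that lacks hormone receptors and HER2 amplification, labelled WT. Treated cells received W23-1006, a compound known by its code name that the series title presents as an inhibitor of ALKBH5, an enzyme that removes methyl groups from N6-methyladenosine in RNA; the other cells received the solvent DMSO. Exposure lasted 24 h in both groups, and each group gave 2 RNA-seq libraries. The question of the comparison is how transcript levels differ between compound and solvent.

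Laminins are large secreted glycoproteins of the basement membrane, the sheet of matrix on which epithelial cells rest. Each laminin molecule is a cross-shaped trimer of 1 alpha, 1 beta and 1 gamma chain wound into a coiled coil. The alpha chain carries the globular domains that integrins and dystroglycan bind. The trimer that contains the LAMA3 and LAMB3 products is the main laminin under stratified and glandular epithelia, where the integrin formed by ITGA6 and ITGB4 binds it and links it through plectin to keratin filaments in the hemidesmosome. In breast carcinoma cells, which often lack complete hemidesmosomes, the same integrin is known for its part in migration.

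Each library held 15161460 to 16497283 reads assigned to genes, taking the smallest value above 0 in a library as 1 read. On that reckoning, replicate libraries differed beyond counting error. The mean chi-square per gene was 4.10 between the W23-1006 libraries and 2.83 between the DMSO libraries. Counting error alone gives 1. The labels do not say whether replicates came from separate cultures, so every error and p-value covers only library-to-library spread, possibly technical. Markers of mesenchymal breast lines were abundant. VIM, CD44, AXL and ZEB1 summed to 43923 and 42617 normalised reads in the W23-1006 libraries and 42715 and 41007 in the DMSO libraries. The 4 luminal markers measured of 6 listed (ESR1, GATA3, FOXA1 and EPCAM) summed to 432 and 443 in the W23-1006 libraries and 521 and 431 in the DMSO libraries. The 3 markers measured of 5 for leukocytes, endothelium and fibroblasts (PECAM1, COL1A1 and COL1A2) summed to 166 and 185 with W23-1006, and 171 and 198 with DMSO. COL1A2 was listed at 0 in 3 of the 4 libraries.

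Sequences before the start sites are shown for the 3 genes with the lowest values relative to DMSO (LAMA5, LAMB2 and LAMB3), together with the sites that LAMA3 and LAMB3 share. RefSeq promoters (GRCh38.p14, 250 bases before to 50 after a start) matched 8 of the 9 genes, with 11 entries in all. ITGB4 was not matched. Both strands were searched for TGAGTCA, the core of AP-1 sites, whose reverse complement is TGACTCA, and for GGGCGG, the GC box that Sp1 binds, whose reverse complement is CCGCCC. The AP-1 core stands in 4.95% of the 35116 RefSeq windows of this length, and 0.222% hold it at least 2 times. It occurred in LAMA3, with 2 matches 125 and 69 bases before the start site, and in 1 of the 3 start sites of LAMB3, with 1 match 67 bases before it. The LAMA3 window lies inside the gene, at the start of a shorter transcript. The LAMB3 window with the match also lies inside its gene, downstream of the other LAMB3 start sites. The 4.95% is a share per window, and 3 windows of LAMB3 were searched. The 3 matches are printed 5′ to 3′ on the gene's strand with the AP-1 core in capitals, from chr18:23872885-23872911, chr18:23872941-23872967 (both plus strand) and chr1:209651425-209651451 (minus strand).
LAMA3 upstream match: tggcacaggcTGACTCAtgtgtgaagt
LAMA3 downstream match: cttcctcaccTGAGTCAggcaggcccg
LAMB3 match: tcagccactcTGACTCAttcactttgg

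The runs of 150 bases upstream of the most 5′ annotated exon follow for the same 3 lower genes, all on the minus strand, with GC boxes in capitals: LAMA5 at chr20:62367313-62367462, LAMB2 at chr3:49133119-49133268 and LAMB3 at chr1:209652467-209652616.
LAMA5: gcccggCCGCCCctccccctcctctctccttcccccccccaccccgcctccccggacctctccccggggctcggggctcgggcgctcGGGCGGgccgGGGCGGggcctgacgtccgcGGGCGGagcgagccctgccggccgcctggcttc
LAMB2: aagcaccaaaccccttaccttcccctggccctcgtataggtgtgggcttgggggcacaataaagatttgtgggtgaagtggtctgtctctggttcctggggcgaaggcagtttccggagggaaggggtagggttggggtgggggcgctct
LAMB3: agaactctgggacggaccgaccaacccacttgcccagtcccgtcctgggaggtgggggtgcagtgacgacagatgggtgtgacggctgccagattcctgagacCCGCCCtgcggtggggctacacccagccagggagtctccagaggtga

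The promoters of the 3 lower genes differed in base composition. The full LAMA5 window had a GC content of 82.7% and 41 CpG dinucleotides with 5 GC boxes, whereas LAMB2 had 58.7%, 15 CpG and 1 GC box, and the first LAMB3 start had 61.3%, 10 CpG and 1 GC box. LAMC1, which differed little between the groups, had 79.0% and 41 CpG with 3 GC boxes. The GC box occurs in 45.0% of all windows, and at least 1 was found in every laminin or integrin promoter matched except that of LAMA4. A match describes letters only and is not evidence of binding.

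The 9 genes covered a wide range of levels. On a per-length scale (normalised reads per kb of the gene length in the deposited table), LAMB3 stood highest at 2258 ± 69.9 with W23-1006 and 2862 ± 153 with DMSO (SD, n = 2 each). ITGA6 (1196 ± 32.1 with W23-1006 and 1195 ± 49.5 with DMSO) and LAMC1 (756 ± 38.4 and 794 ± 7.79 in the same order) followed. LAMB2, LAMA5, LAMA4, LAMB1 and ITGB4 came next, in that order, with ITGB4 at 110 ± 22.7 with W23-1006 and 129 ± 14.3 with DMSO. LAMA3 was lowest at 5.57 ± 0.0707 with W23-1006 and 6.08 ± 0.443 with DMSO. The order was the same in both groups. The libraries of neighbours in it did not overlap within a group, although LAMB1 and ITGB4 came close, at 142 and 139 in their nearest DMSO libraries.

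**Figure D1:**
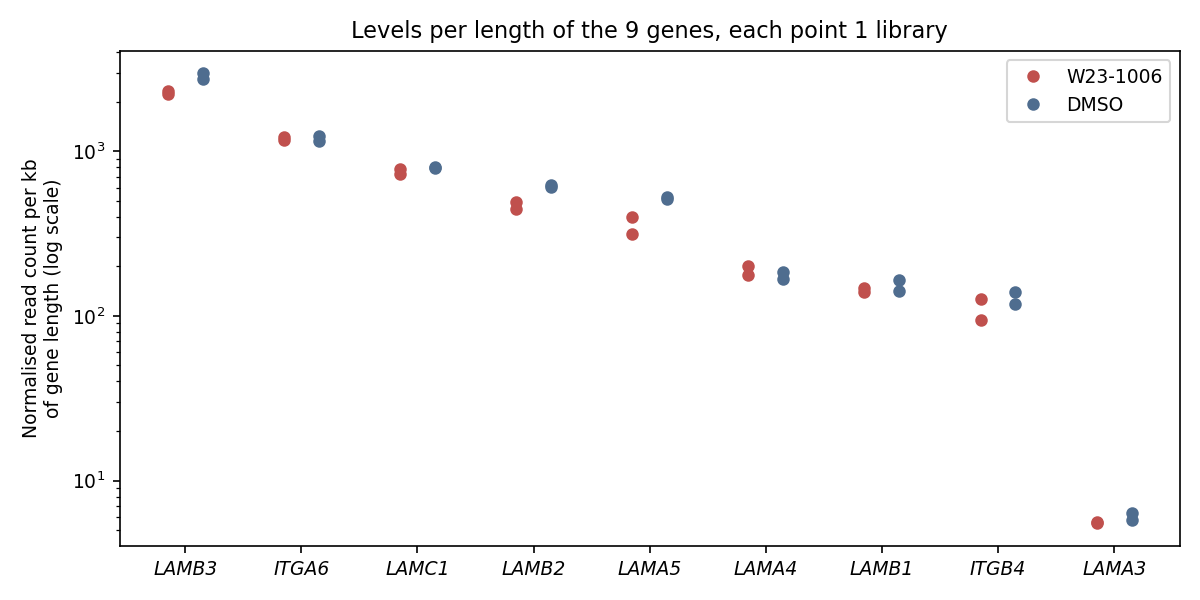
Normalised read count per kb of gene length (log scale) for the 9 genes, each point 1 library, W23-1006 left of DMSO within each gene. LAMB3 leads at 2208 to 2970 per kb and LAMA3 stands far below the others at 5.52 to 6.40.

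The transcripts of LAMB3 and LAMA3, which join in the epithelial laminin trimer, had very unequal levels. LAMB3 exceeded LAMA3 by a per-length ratio of 405 with W23-1006 and 473 with DMSO. LAMA3 is transcribed from distant starts into long and short forms. With the longest annotated transcripts as lengths, the ratio of LAMB3 to LAMA3 was 321 with W23-1006 and 374 with DMSO. ITGA6 exceeded its partner ITGB4 by a ratio of 11.1 with W23-1006 and 9.36 with DMSO. ITGA6 also pairs with the integrin beta chain of ITGB1, which had 17110 ± 18.3 normalised reads with W23-1006 and 16599 ± 26.4 with DMSO, not corrected for length.

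Among the beta chains LAMB3 held most of the level in both groups. LAMB3 made up 78.3% and 78.9% of the summed per-length level of LAMB1, LAMB2 and LAMB3 in the W23-1006 libraries, and 79.0% and 78.7% in the DMSO libraries. The groups overlapped in this share. LAMB1 made up 5.03% and 5.02% with W23-1006, against 4.40% and 4.07% with DMSO, so its smaller share was apart between the groups and larger with the compound. It was also apart after each library's trend on GC content was removed, at 4.85% and 4.67% with W23-1006, against 4.64% and 4.30% with DMSO. The nearest libraries of the groups, at 4.67% and 4.64%, then lay closer together than the replicates of either group. Among the alpha chains LAMA5 made up 65.9% and 63.1% with W23-1006, against 75.2% and 73.0% with DMSO, and LAMA4 made up 33.1% and 35.8% with W23-1006, against 24.0% and 26.1% with DMSO. Both shares were apart between the groups, with LAMA5 smaller and LAMA4 larger with the compound. LAMA3 stayed near 1%, at 1.02% ± 0.126 with W23-1006 and 0.864% ± 0.0592 with DMSO (SD, n = 2 each). A share within a library is unaffected by how libraries are scaled to each other.

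LAMA5, LAMB2 and LAMB3 were lower with W23-1006, whereas the other 6 genes differed little or varied between replicates. In the limma fit across all genes, these 3 of the 9 were called lower and 0 were called higher at an adjusted p under 0.05. Of the 22486 genes tested, 1.46% were called lower and 0.694% higher, 2.15% in all, and of those with a mean of at least 1000 normalised reads 4.21% were called lower. All 9 genes passed the filter on low values, a mean of at least 1. In the authors' deposited table the same 3 genes had an adjusted p under 0.05 with log2 fold changes of -0.55 (LAMA5), -0.39 (LAMB2) and -0.34 (LAMB3), beside 1.36% of its genes listed as lower and 1.06% as higher at that threshold. Since the genes were chosen with this contrast known, nothing is read from these counts. With any 1 of the 4 libraries left out the fit called 0 of all genes, so it says nothing of these 3 in particular.

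Of the alpha chains, LAMA5 belongs to the most widespread laminins of adult basement membranes and lies on the minus strand of chromosome 20 (62307955 to 62367312, GRCh38). It had 5681 and 4481 normalised reads with W23-1006, against 7546 and 7364 with DMSO. The groups did not overlap, and the W23-1006 libraries differed from each other by 0.34 on the log2 scale. The log2 fold change (W23-1006 over DMSO, on the log2(value + 1) scale throughout) was -0.56 (SE 0.08), a mean at 68.2% of that with DMSO. It was -0.39 without W23-1006 replicate 2 and -0.73 without W23-1006 replicate 1. LAMA5 shares 244 exonic bases with ADRM1 on the opposite strand, 1.71% of its exonic length, and the strand setting of the counting is not given in the sources used here. ADRM1, a proteasome receptor, had 1572 and 1444 normalised reads with W23-1006, against 1807 and 1686 with DMSO. Without strand, reads in the shared bases could come from either gene. Opposite-strand overlaps in LAMA4, LAMB1 and ITGA6 covered at most 2.71% of their exonic length per partner, and LAMA3, LAMB2, LAMC1 and ITGB4 had none.

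LAMA4, an alpha chain typical of vessels and mesenchyme (chromosome 6, 112108760 to 112254939, minus strand), had 2311 and 2063 normalised reads with W23-1006, against 1947 and 2137 with DMSO. The groups overlapped and the log2 fold change was 0.10 (SE 0.07). LAMA3, the alpha chain of the epithelial trimer (chromosome 18, 23689443 to 23956222, plus strand), had 82.5 and 81.0 with W23-1006, against 84.7 and 93.9 with DMSO. Its groups lay side by side, at a log2 fold change of -0.12 with an SE of 0.21. That is the widest error among the 9 genes, at the lowest count.

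Of the beta chains, LAMB3 (chromosome 1, 209614870 to 209652466, minus strand), which occurs in the epithelial trimer, had 10817 and 10353 normalised reads with W23-1006, against 13925 and 12908 with DMSO. The groups did not overlap, and the log2 fold change was -0.34 (SE 0.05), a mean at 78.9% of that with DMSO. LAMB2, the beta chain of synaptic and kidney basement membranes (chromosome 3, 49121114 to 49133118, minus strand), had 3373 and 3079 with W23-1006, against 4284 and 4149 with DMSO. It was lower in both W23-1006 libraries by more than replicates differed, with a log2 fold change of -0.39 (SE 0.06). LAMB1, the beta chain that is broadly expressed from early development (chromosome 7, 107923799 to 108003255, minus strand), had 1207 and 1144 with W23-1006, against 1345 and 1159 with DMSO. DMSO replicate 1 alone stood apart, and the log2 fold change of -0.09 (SE 0.08) became 0.02 without it.

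LAMC1, the gamma chain shared by most laminins (chromosome 1, 183023460 to 183145592, plus strand), had 6580 and 6123 normalised reads with W23-1006, against 6722 and 6629 with DMSO. Both W23-1006 libraries were below both DMSO libraries by a small margin, at a log2 fold change of -0.07 (SE 0.05). Counting LAMC1, 5 of the 9 genes had both W23-1006 libraries below both DMSO libraries and 0 had them above. Among all genes tested this held for 25.0% and 22.1%. Bulk RNA cannot tell fewer cells with a transcript from less of it per cell.

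**Figure D2:**
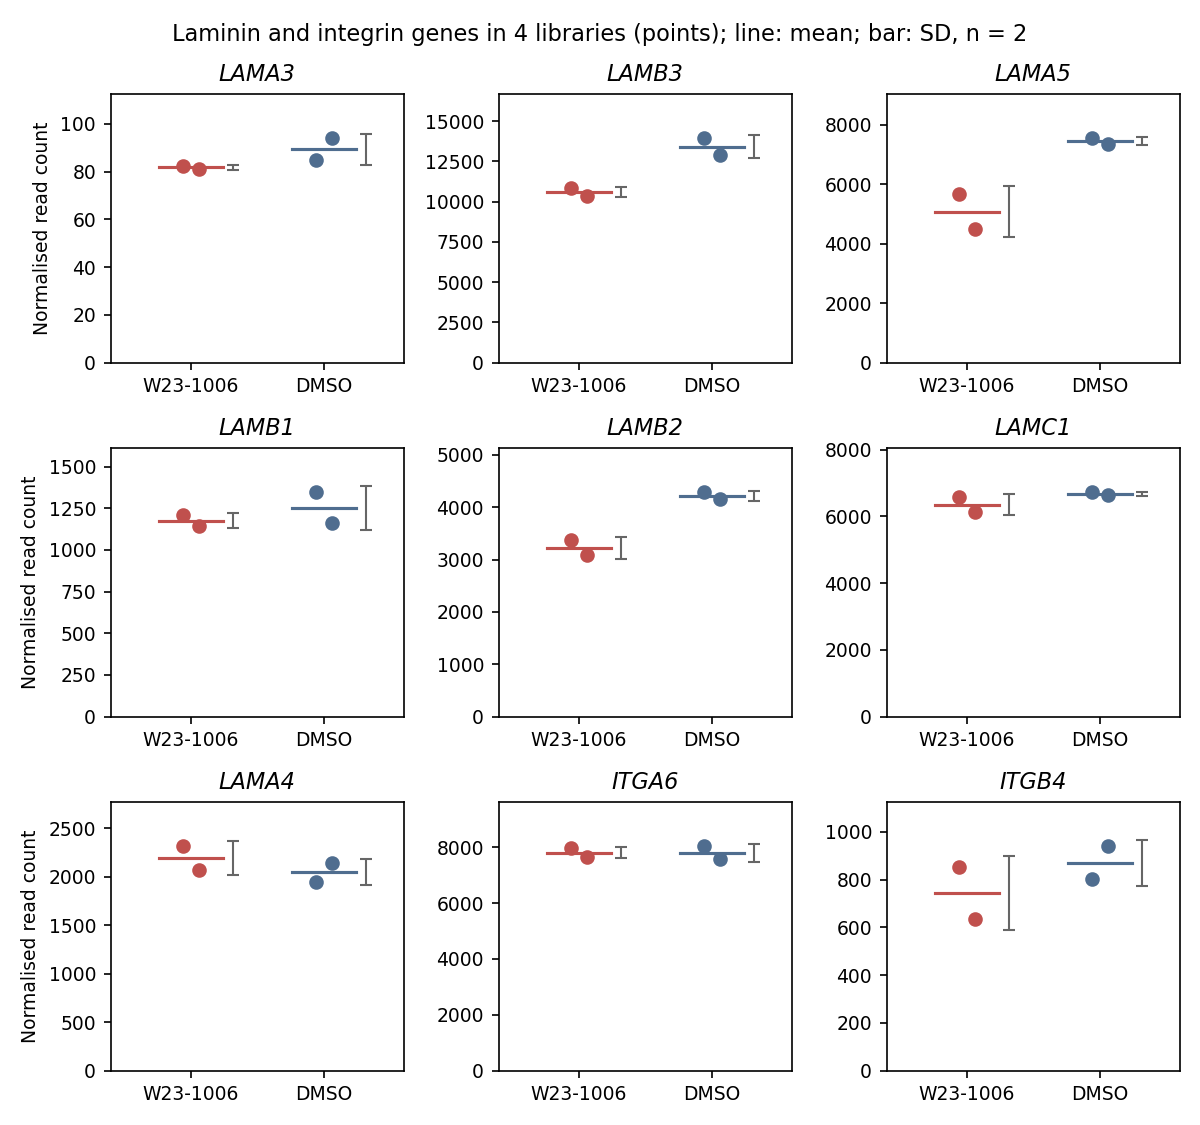
Normalised read counts of the 9 genes in the W23-1006 (left, n = 2) and DMSO (right, n = 2) libraries; points are libraries, horizontal lines group means and grey bars SD, with each axis starting at 0. LAMB3, LAMA5 and LAMB2 show a clear gap between the groups, whereas the points of LAMB1, LAMA4, ITGA6 and ITGB4 overlap.

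Neither integrin subunit was called in the limma fit. ITGA6, the alpha subunit that recognises laminin (chromosome 2, 172427354 to 172506282, plus strand), had 7961 and 7664 normalised reads with W23-1006, against 8033 and 7576 with DMSO. The groups were intermingled, and the log2 fold change was 0.00 (SE 0.05). ITGB4, whose long cytoplasmic tail anchors the hemidesmosome plaque (chromosome 17, 75721328 to 75757818, plus strand), had 852 and 635 with W23-1006, against 802 and 939 with DMSO. W23-1006 replicate 1 lay between the DMSO libraries, so the groups overlapped. Its log2 fold change was -0.24 (SE 0.12), -0.45 without W23-1006 replicate 1 and -0.03 without W23-1006 replicate 2.

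The fold changes of the 9 genes followed the GC content of their transcripts. LAMA5 (66.4%), ITGB4 (63.7%), LAMB2 (60.3%) and LAMB3 (58.9%) had the highest GC content of the longest annotated transcript, and also the 4 lowest log2 fold changes. The other 5 had a GC content of 42.9% to 50.7% and log2 fold changes of -0.12 to 0.10. Across the 9 genes Spearman's rho was -0.93, and across 12582 better-expressed genes of the same libraries it was -0.66. These are descriptions, since all genes come from the same 4 libraries. For a view by library, each gene's log2 value was taken as its deviation from that gene's mean over the 4 libraries. The mean deviation of the most GC-rich decile (above 61.1%) was then set against that of the most GC-poor decile (below 38.3%). The difference was -0.14 and -0.31 in the W23-1006 libraries, and 0.22 and 0.23 in the DMSO libraries. Such deviations compare libraries and do not say whether GC-rich genes had higher levels than GC-poor ones. Of the 3425 genes tested with at least the GC content of LAMB3, 7.21% were called lower.

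**Figure D3:**
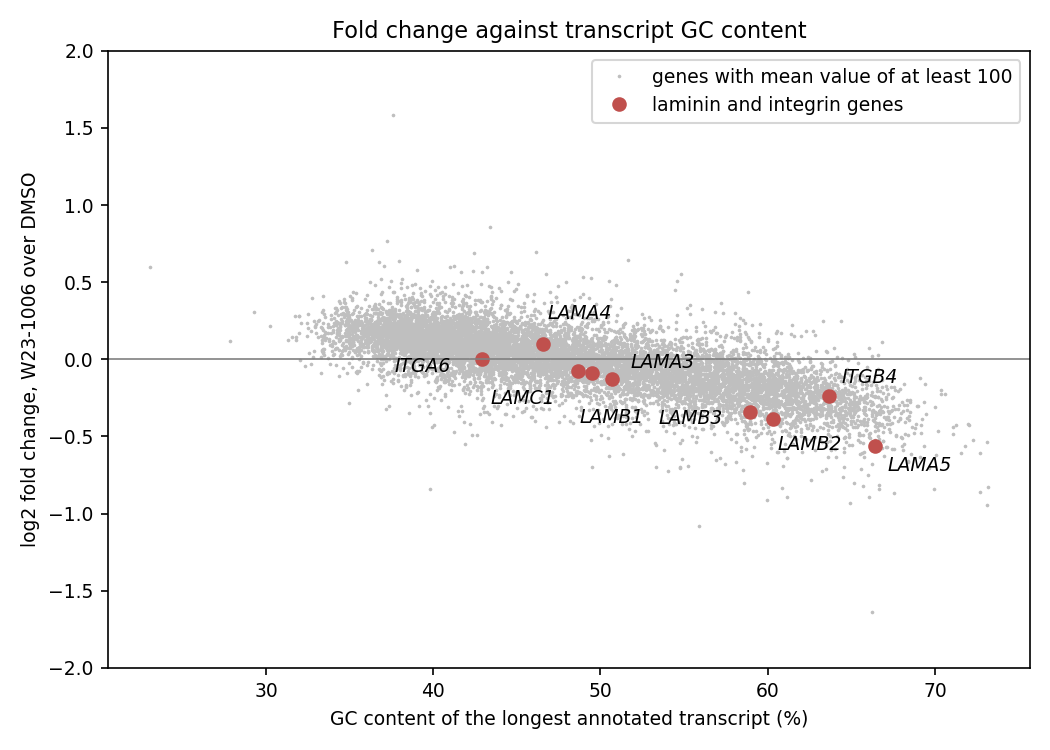
Log2 fold change, W23-1006 over DMSO, against the GC content (%) of the longest annotated transcript; grey points are genes with a mean normalised read count of at least 100 and red points the 9 laminin and integrin genes. LAMA5, LAMB2, LAMB3 and ITGB4 lie at 58.9% to 66.4% GC at the low end of the slope that all genes form.

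The trend on GC content differed between the groups, so removing it also removes any group difference that goes with GC content. Where the trend came from was not tested. When each library's trend on GC content was removed, the differences of the lower genes shrank. LAMA5 was then at a log2 fold change of -0.22 (SE 0.06), LAMB2 at -0.18 (SE 0.05) and LAMB3 at -0.16 (SE 0.05). Both W23-1006 libraries were then below both DMSO libraries in 6 of the 9 genes and above them in 0, beside 18.6% and 19.6% of all genes. LAMA5, LAMB2, LAMB3, LAMA3 and LAMC1 were among the 6 as before, with ITGA6 added. None of the 9 genes was called in either direction in the limma fit on these values. In that fit 0.0311% of all genes were called lower and 0.0623% higher, and 1631 genes had an unadjusted p under 0.05. ITGB4 changed sign, to 0.04 (SE 0.10), and ITGA6 went to -0.08 (SE 0.05). The share of LAMA5 among the alpha chains was 67.4% ± 0.468 with W23-1006 and 71.6% ± 1.56 with DMSO after the correction (SD, n = 2 each), a narrower gap.

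**Figure D4:**
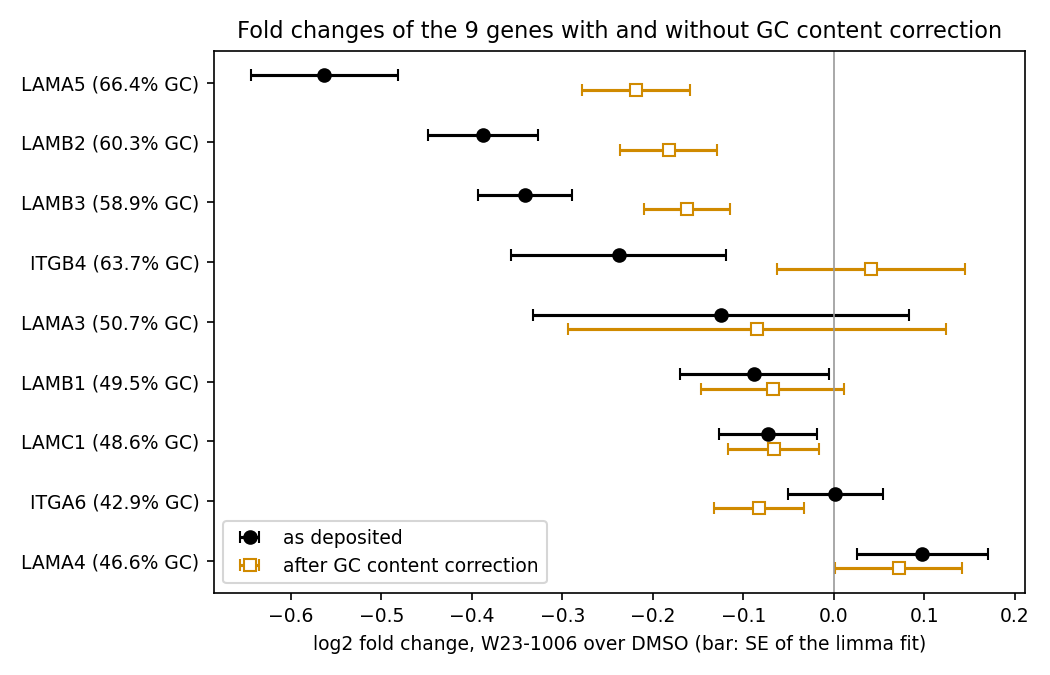
Log2 fold change, W23-1006 over DMSO, of the 9 genes from the limma fit as deposited (black circles) and after removal of each library's GC trend (open squares), with bars for the SE of the fit; labels give transcript GC content. LAMA5 goes to -0.22, from -0.56 before the correction, and ITGB4 changes sign, while LAMC1, LAMB1, LAMA3 and LAMA4 hardly move.

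The 4 GC-rich genes were also the ones richest in GGACT, a core of the consensus in which m6A is placed. Per kb of the longest transcript ITGB4 had 1.86 matches, LAMB2 1.59, LAMA5 1.40 and LAMB3 1.16, while the other 5 genes had 0.534 (ITGA6) to 1.04 (LAMB1). The median protein-coding gene tested had 0.936. Matches were few, from 3 (ITGA6) to 16 (LAMA5) per transcript. LAMB3 had 5 and LAMB1 had 6 in a longer transcript, so the step between these 2 genes is slight. Spearman's rho of this density with the log2 fold change was -0.72 across the 9 genes, beside -0.93 for GC content. The 2 properties go together in these genes and were not tested apart. Across 14599 protein-coding genes the density of this motif was greater at higher GC content (Spearman's rho 0.33, across genes). A match is a run of letters and says nothing of whether the base is methylated, which was not measured here.

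Genes that work with laminins and this integrin were taken from 6 lists of 36 symbols, of which 30 were tested. In the limma fit 4 were called lower and 1 higher, beside 1.46% and 0.694% of all genes tested. Of the genes with at least the GC content of LAMB3, 7.21% were called lower. The median GC content of the 30 was 56.2%, beside 47.9% over all genes tested. Their median log2 fold change was -0.08, beside -0.01 over all genes tested. After the GC correction 0 were called in either direction and the median was 0.00.

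Of the linkers that join laminin to the rest of the basement membrane, 2 of 5 fell, beside 1.46% of all genes called lower. Agrin, AGRN, which bridges laminin and dystroglycan, had 3527 and 2953 normalised reads with W23-1006, against 4965 and 4699 with DMSO (log2 fold change -0.58, SE 0.07, limma adjusted p = 0.00346). Perlecan, HSPG2, the large heparan sulphate proteoglycan, had 1630 and 1452 with W23-1006, against 2042 and 2037 with DMSO (-0.41, SE 0.07, limma adjusted p = 0.0206). The groups did not overlap in either gene, and their transcripts had a GC content of 67.5% and 64.5%. After the GC correction AGRN stood at -0.21 and HSPG2 at -0.11 (limma adjusted p = 0.301 and 0.722).

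Of the 4 hemidesmosome plaque and anchor genes tested, 1 was called lower, beside 1.46% of all genes tested. Among genes with at least the GC content of LAMB3, 7.21% were called lower. Log2 fold changes of the 4 ran from -0.56 to 0.13. The gene called was plectin, PLEC, which ties ITGB4 to keratin. It had 23499 and 21332 normalised reads with W23-1006, against 29130 and 26174 with DMSO (log2 fold change -0.30, SE 0.06, limma adjusted p = 0.0235). Its GC content was 67.0%, and after the GC correction the sign turned, to 0.05 (SE 0.05). Of the 2 proteases tested, 1 was called lower, beside the same 1.46% of all genes. This was MMP14, a membrane-bound metalloproteinase that can cleave laminin chains. It had 1923 and 1920 normalised reads with W23-1006, against 2252 and 2421 with DMSO (-0.28, SE 0.06, limma adjusted p = 0.0395, and -0.10 after the GC correction).

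Of the 6 signalling partners of the ITGB4 tail, 1 was called higher, beside 0.694% of all genes tested. That gene, PTPN11, encodes the phosphatase SHP2. It had 7221 and 7451 normalised reads with W23-1006, against 6463 and 6162 with DMSO (log2 fold change 0.22, SE 0.05, limma adjusted p = 0.0455, and 0.12 after the GC correction). Its GC content was 42.2%. Of the 9 laminin receptor genes and the 4 other laminin chains tested, 0 were called in either direction. At an unadjusted p the same fit had 3752 of all genes under 0.05. The receptor genes were not all flat, with log2 fold changes of -0.63 to 0.14. Their median was -0.07, and 0.00 after the GC correction. The most abundant receptor genes differed little. ITGB1 stood at 0.04 (SE 0.05) and RPSA, the ribosomal protein also described as a laminin receptor, at -0.08 (SE 0.05). RPSA has many near-identical pseudogene copies, so its count is uncertain. LAMA1, an alpha chain of early embryos, had 171 and 168 with W23-1006, against 116 and 122 with DMSO, at 0.51 (SE 0.16, limma adjusted p = 0.113). With 1 library left out the fit called 0 of all genes, these included, and the log2 fold changes were then -0.71 to -0.45 for AGRN, -0.49 to -0.32 for HSPG2, -0.38 to -0.23 for PLEC, -0.33 to -0.23 for MMP14 and 0.18 to 0.25 for PTPN11.

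LAMA5 had the smallest p of the 9 genes in the fit, and the 3 protein-coding genes whose deviations over the 4 libraries were most like it, among 10136 with a mean of at least 100, were FZD8 (Euclidean distance 0.0400 on the log2 scale), BICRA (0.0556) and PRR7 (0.0557). FZD8, a receptor for Wnt proteins, had 531 and 411 normalised reads with W23-1006, against 714 and 701 with DMSO. The GC content of these 3 genes was 64.6%, 68.6% and 71.6% in the same order, beside 66.4% for LAMA5.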

How the data were processed

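The 2 W23-1006 and 2 DMSO RNA-seq libraries of MDA-MB-231 cells were analysed from 1 deposited table. The submitters' processing notes name GRCh38 as the build, DESeq2 1.20.0, featureCounts 1.5.0-p3, HISAT2 2.0.5, CASAVA and fastp, without order or role. Strand setting and annotation: not given in the sources used here. The authors deposited a signal per gene and library. Of these values 100% were whole multiples (within 0.001) of a step near 1, so they look like read counts scaled per library. The check of recovered reads failed in 2 columns and no count model was fitted. The reads per library and the chi-square values given above rest on taking that step as 1 read. Treatment and control columns were taken as W23-1006 and DMSO, the 2 labelled groups. The authors' deposited table also gives log2 fold change, p-value and adjusted p-value, per the file headers.

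The count test planned could not be used on scaled values, and limma 3.58.1 (R 4.3.3) on log2(value + 1) with a mean-variance trend took its place, for genes with a mean of at least 1, two-sided, with Benjamini-Hochberg adjustment at 0.05 over 22486 genes. An exact permutation test of 2 against 2 libraries cannot go below p = 0.333. GC content came from the longest GENCODE 29 transcript; its trend per library was removed by loess (span 0.3, genes with a mean log2 of at least 5). Start and end matched GENCODE 29 for 99.98% of genes. The fit was tested on simulated data. Members and lists were chosen with earlier results of these data known. Named genes are the 9 members, list genes past the threshold (or the 2 most abundant of a list) and the 3 genes most like the member with the smallest p; 1 gene this rule names is not reported here. Alternatives were other pseudocounts, filters, scalings, one prior variance, a replicate block, GC correction, another length and each library left out.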

Additional observations from a re-analysis of the deposited data

How the results depend on the processing

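Leaving out any 1 library left 0 calls in either direction, for the 9 genes, the partner genes and all genes alike (1904 to 3112 genes at an unadjusted p under 0.05 in limma). A pseudocount of 0.1, no filter on low values and one prior variance for all genes also left 0 of each (1866 to 3568 at an unadjusted p under 0.05). With a pseudocount of 5, 7 partner genes were lower, and 489 of all genes lower and 281 higher. With genes at 10 or more in at least 2 libraries, 7 partner genes were lower, and 731 of all genes lower and 485 higher. With equal library totals these were 7, 583 and 237. With this setting, the pseudocount of 5 and the filter at 10, 1 partner gene was higher. With the GC correction 0 of the 9 genes and 0 partner genes were called, and 7 of all genes were lower and 14 higher. Median-of-ratios scaling left the deposited values almost as they were (log2 fold change of LAMA5 -0.563 with and without it). Its unchanged counts are therefore no check on the calls. LAMA5, LAMB2 and LAMB3 stayed called lower with a pseudocount of 5, the filter at 10, equal library totals and the replicate block. Same-numbered libraries were related by a correlation of 0.05 in their deviations. With 2 libraries per group this cannot show whether they share more than a number. The replicate block gave 8 partner genes lower and 1 higher, and 1001 of all genes lower and 730 higher. The GC correction with the replicate block called LAMA5, LAMB2 and LAMB3 lower. It called 2 partner genes lower (AGRN and RPSA) and 1 higher, and 94 of all genes lower and 106 higher.

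Across these alternatives LAMA5 kept a log2 fold change of -0.73 to -0.22, LAMB2 of -0.45 to -0.18 and LAMB3 of -0.40 to -0.16. Signs turned for LAMB1 in leave-one-out fits (-0.20 to 0.020, the upper value without DMSO replicate 1), and for ITGA6, whose fold change was near 0, with equal totals (-0.012), the GC correction with or without the block (-0.083) and in leave-one-out fits (-0.040 to 0.044). With the GC correction, with or without the block, they turned for ITGB4 (0.041), ITGB1 (-0.078) and PLEC (0.055). With the longest annotated transcript as length, LAMB3 made up 76.1% of the beta chain level with W23-1006 and 76.4% with DMSO, and LAMA5 56.4% of the alpha chain level with W23-1006 and 67.1% with DMSO. The LAMA5 share was still smaller with W23-1006. The DESeq2 alternative was not run, as it needs counts.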

Other observations

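The other integrin subunits, taken by symbol after the data were seen, numbered 12 at a mean of at least 100 normalised reads with ITGA6 and ITGB4 included. In the limma fit 1 of the 12 rose and 0 fell, beside 0.694% of all genes called higher and 1.46% called lower. ITGAV, the alpha subunit of vitronectin and fibronectin receptors, had 4993 and 4788 normalised reads with W23-1006, against 4111 and 3901 with DMSO (log2 fold change 0.29, SE 0.06, limma adjusted p = 0.0235). Its transcript had a GC content of 38.3%, and after the GC correction it stood at 0.15 (SE 0.05, limma adjusted p = 0.592). With 1 library left out, where the fit called 0 of all genes, its log2 fold change was 0.25 to 0.33. ITGB5, a beta partner of ITGAV, had 2705 and 2496 with W23-1006, against 2884 and 2947 with DMSO, at -0.17 (SE 0.06, limma adjusted p = 0.177).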
